A study of Oryza sativa with 14 samples.

Results

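Small heat shock proteins are small chaperones that bind unfolding proteins during heat and keep them soluble until ATP-driven chaperones such as HSP101 and HSP70 refold them. Plants carry many of them, several as tandem copies, and heat shock factors bind their promoters and switch them on. The genes described here are the 9 small heat shock protein genes of rice (Oryza sativa) in 2 tandem clusters, chosen by locus ID out of 55986 genes in the count table. The chromosome 1 cluster holds 5 of them: HSP16.6 (LOC_Os01g04340), HSP17.9B (LOC_Os01g04350), HSP16.9C (LOC_Os01g04360), HSP16.9A (LOC_Os01g04370) and HSP16.9B (LOC_Os01g04380). The chromosome 3 cluster holds 4: HSP17.9A (LOC_Os03g15960), HSP17.4 (LOC_Os03g16020), HSP18.1 (LOC_Os03g16030) and HSP17.7 (LOC_Os03g16040). The HSP16.9 genes and the chromosome 3 genes are known as class I, the main cytosolic class. All 9 passed the filter on low counts.

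RNA was sequenced from leaves of Zhonghua 11 seedlings with 4 leaves, in 14 libraries. The groups are the htg3 lines cr12 and cr2 after 0.5 h at 42 °C (cr12_heat and cr2_heat, 2 libraries each), WT after the same heat (WT_heat, 3 libraries), both lines without heat (cr12_control and cr2_control, 2 each) and WT without heat (WT_control, 3). The series looked for genes downstream of HTG3, which is the heat shock factor HSFA2d (LOC_Os03g06630). The labels give neither the edit in each line nor whether replicates came from separate plants, and the p-values cover only the variation among these libraries, which may be technical.

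Library totals ran from 92.0 to 99.4 M deposited counts (M, mega). Levels are counts per M counts (CPM) on scaled library sizes, and log2 changes are given ± SE. A gene was called at an adjusted p under 0.05 in edgeR's quasi-likelihood test, adjusted over all 28823 tested genes. Every adjusted p of a gene or cluster sum below is from that test. HSFA2d averaged 518 CPM in cr12_heat, 256 in cr2_heat and 530 in WT_heat, and 84.6 in cr12_control, 95.8 in cr2_control and 81.8 in WT_control. The cr12_control libraries lay far apart, at 137 and 32.0 CPM. Counts of HSFA2d do not check the edit, which the labels do not describe. The leaf markers RCA, RBCS and LHCB were abundant in every library, the root transporter gene Lsi2 was at 0 in all 14, and the meristem gene OSH1 was at 0 in 13. The root genes Lsi1 and IRT1 stood at 4.75 to 27.2 CPM and 0.376 to 2.80 CPM. RCA fell by 3.27 and Lsi1 rose by 1.87 with heat in WT, and the part of such shifts in the results below was not tested. Neighbouring copies are similar in sequence and may share reads, so the value of a single copy is uncertain, and the summed counts of each cluster are given beside it.

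Heat raised all 9 genes in the htg3 lines and all 9 in WT. HSP16.6 and HSP16.9C had almost no untreated counts and passed the filter on low counts through their heat-treated libraries. Their calls with heat are thus not independent of that filter. Of all tested genes, 27.6% were called higher with heat in the lines and 24.8% in WT. The median log2 change of the 9 genes was 9.35 in the htg3 lines and 10.92 in WT, against -0.03 and -0.05 over all tested genes. With HSP16.6 at its lower bound the WT median was 9.68. Together the 9 genes took 2.26% of all counts in cr12_heat, 1.47% in cr2_heat and 1.98% in WT_heat, against 0.0257% in cr12_control, 0.0188% in cr2_control and 0.0230% in WT_control. The chromosome 1 sum rose by 2.95 ± 0.14 in the lines (adjusted p = 5e-09) and 3.67 ± 0.16 in WT (adjusted p = 5.8e-09). The chromosome 3 sum rose by 9.38 ± 0.39 (adjusted p = 2.5e-09) and 9.60 ± 0.46 (adjusted p = 1.1e-08). HSP17.9B, which changed little, held 99.0% of the untreated chromosome 1 counts. Without it the chromosome 1 ratio of group means, heat over control, was 403 in cr12, 688 in cr2 and 1478 in WT. For the chromosome 3 sum these ratios were 623, 714 and 776. In bulk leaf RNA, more cells with a transcript and more transcript per cell cannot be told apart.

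**Figure D1:**
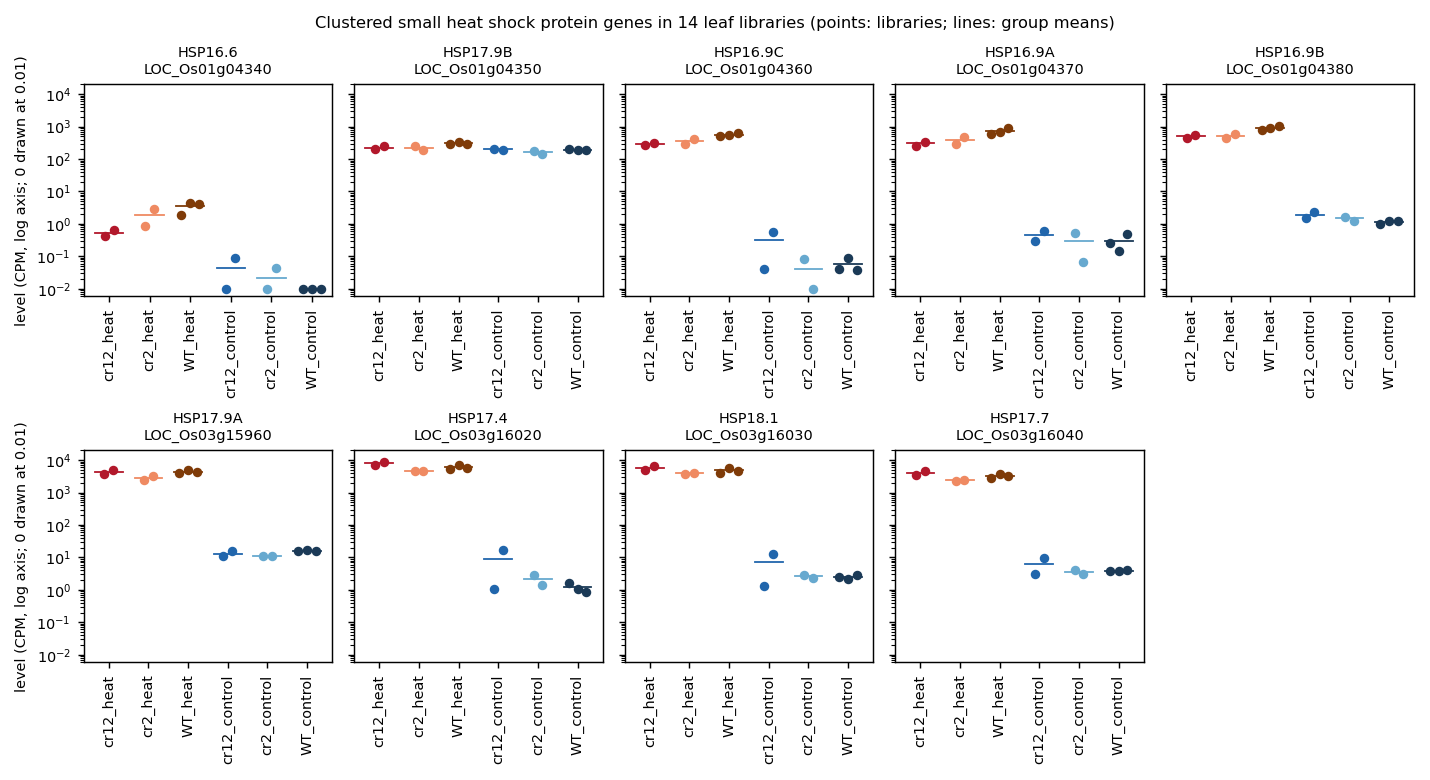
Level of each of the 9 genes (CPM, log axis, 0 drawn at 0.01) in the 14 libraries, with heat-treated groups on the left; points are libraries and lines are group means. HSP17.9B stands at 146 to 337 CPM in all libraries, while the other 8 genes stand higher in every heat-treated library than in any untreated one. The margin is small for HSP16.6 (lowest 0.435 CPM after heat, highest 0.0886 CPM without it) and large for the rest.

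HSP16.9B, the last copy of the chromosome 1 cluster by locus ID, had 456 and 566 CPM in cr12_heat, 435 and 601 in cr2_heat and 759, 934 and 1011 in WT_heat. Without heat it had 1.57 and 2.31 CPM in cr12_control, 1.67 and 1.27 in cr2_control and 0.995, 1.20 and 1.20 in WT_control. No heat-treated library came near an untreated one. The log2 change with heat was 8.25 ± 0.21 in the htg3 lines (adjusted p = 8.2e-11) and 9.63 ± 0.26 in WT (adjusted p = 3.1e-10).

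HSP16.9A and HSP16.9C, the other class I copies of this cluster, were close to silent without heat. HSP16.9A had 259 and 344 CPM in cr12_heat, 284 and 482 in cr2_heat and 608, 692 and 887 in WT_heat, against 0.0646 to 0.610 CPM over the 7 untreated libraries. HSP16.9C had 266 and 323 CPM in cr12_heat, 301 and 413 in cr2_heat and 500.2, 543 and 658 in WT_heat. It stood at 0 to 0.581 CPM in the untreated libraries, highest in the second cr12_control library, which had 59 counts. The 2 genes rose by 9.84 ± 0.52 and 11.45 ± 0.56 in the htg3 lines (adjusted p = 1.5e-08 and 8e-09), and by 11.23 ± 0.63 and 13.26 ± 0.69 in WT (adjusted p = 4e-08 and 2.3e-08). With so few untreated counts these sizes are imprecise.

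HSP16.6, the first copy by locus ID, stayed near the detection limit even after heat. It had 0.435 and 0.650 CPM in cr12_heat, 0.887 and 2.85 in cr2_heat and 1.86, 4.41 and 4.17 in WT_heat. No count was found in any WT_control library, and the htg3 lines without heat had 0 to 0.0886 CPM. The gene was called higher with heat in the lines (adjusted p = 0.00054) and in WT (adjusted p = 9.5e-05). Against a floor of 12 counts over the WT_control group it was at least 86.9-fold higher in WT_heat.

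HSP17.9B departed from its neighbours, being abundant without heat and changing little. It had 205 and 245 CPM in cr12_heat, 259 and 189 in cr2_heat and 283, 337 and 299 in WT_heat. Without heat it had 201 and 194 CPM in cr12_control, 183 and 146 in cr2_control and 204, 194 and 187 in WT_control. The WT groups did not overlap, and heat raised the gene by 0.65 ± 0.13 there (adjusted p = 0.0013). In the htg3 lines the groups overlapped, and the change was 0.32 ± 0.11 (adjusted p = 0.032). That call was lost when only the groups compared were fitted (adjusted p = 0.074) and in 4 of 14 fits that left out 1 library, namely the second of cr12_control, of cr2_control or of cr12_heat, or the first of cr2_heat (adjusted p = 0.06, 0.12, 0.11 and 0.16).

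The 4 chromosome 3 genes reached higher levels per kb than the chromosome 1 genes after heat. HSP17.4 had 7171 and 8711 CPM in cr12_heat, 4585 and 4726 in cr2_heat and 5474, 7060 and 5872 in WT_heat. Without heat it had 1.04 and 16.7 CPM in cr12_control, 2.92 and 1.39 in cr2_control and 1.57, 1.10 and 0.881 in WT_control. The second cr12_control library stood apart from every other untreated one. The log2 change was 10.44 ± 0.80 in the htg3 lines (adjusted p = 3.9e-07) and 12.34 ± 1.00 in WT (adjusted p = 8.7e-07).

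HSP18.1 had 5071 and 6695 CPM in cr12_heat, 3666 and 4109 in cr2_heat and 4139, 5570 and 4783 in WT_heat, and 1.29 to 12.9 CPM without heat. HSP17.7 had 3582 and 4573 CPM in cr12_heat, 2314 and 2520 in cr2_heat and 2759, 3615 and 3225 in WT_heat, and 3.07 to 9.71 CPM without heat. In both genes the highest untreated value was again that of the second cr12_control library. They rose by 10.12 ± 0.66 and 9.35 ± 0.37 in the htg3 lines (adjusted p = 9.4e-08 and 1.6e-09), and by 10.92 ± 0.79 and 9.68 ± 0.43 in WT (adjusted p = 3.3e-07 and 6.7e-09).

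HSP17.9A lies apart from the other 3 genes of the cluster by locus ID. It had 3615 and 4862 CPM in cr12_heat, 2354 and 3245 in cr2_heat and 4084, 4840 and 4222 in WT_heat. Without heat it had 10.9 and 15.5 CPM in cr12_control, 11.1 and 10.7 in cr2_control and 16.2, 17 and 15.8 in WT_control. It rose by 8.17 ± 0.20 in the htg3 lines (adjusted p = 6.9e-11) and by 8.07 ± 0.23 in WT (adjusted p = 3.4e-10).

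Levels of different genes were compared per kb of RefSeq gene span, introns included. After heat WT leaves held 7261 CPM per kb of HSP17.4, 4929 of HSP18.1, 4417 of HSP17.9A and 3466 of HSP17.7. The library ranges of HSP18.1 (4224 to 5683) and HSP17.9A (4116 to 4879) overlapped, and that of HSP17.4 (6478 to 8355) lay above both. The range of HSP17.7 (2989 to 3916) lay below both. The chromosome 1 genes followed at 1194 CPM per kb for HSP16.9B, 886 for HSP16.9A, 730.0 for HSP16.9C, 334 for HSP17.9B and 3.75 for HSP16.6. The ranges of HSP16.9A (739 to 1078) and HSP16.9B (1005 to 1339) overlapped, as did those of HSP16.9A and HSP16.9C (644 to 847). In untreated WT the order was another one, with HSP17.9B first at 213 CPM per kb, HSP17.9A next at 16.5 and HSP17.7 at 4.21, and the other 6 genes at 2.55 or less.

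The makeup of both clusters differed with heat. In the 7 heat-treated libraries HSP17.9B made up 14.6 ± 3.54% of the chromosome 1 counts, against 99.0 ± 0.394% in the 7 untreated ones (mean ± SD, exact permutation test over libraries, two-sided, p = 0.00058, adjusted over 9 genes 0.00075). The value of 0.00058 is the smallest this design allows. HSP16.9B made up 36.3 ± 1.68% of the cluster after heat and 0.778 ± 0.227% without it, with the same exact p. As a share of the cluster without HSP17.9B, its difference with heat ran the other way, at -34.8 percentage points. In the chromosome 3 cluster HSP17.9A made up 21.4 ± 2.58% after heat and 59.1 ± 14.8% without it, and HSP17.4 made up 34.1 ± 1.71% and 10.5 ± 9.42%, again with the same exact p. No difference was detected for HSP17.7, with 17.7 ± 0.641% after heat and 17.6 ± 1.45% without it (exact permutation p = 0.87). In the second cr12_control library HSP17.9A held 28.2% of the cluster, a share close to those after heat.

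**Figure D2:**
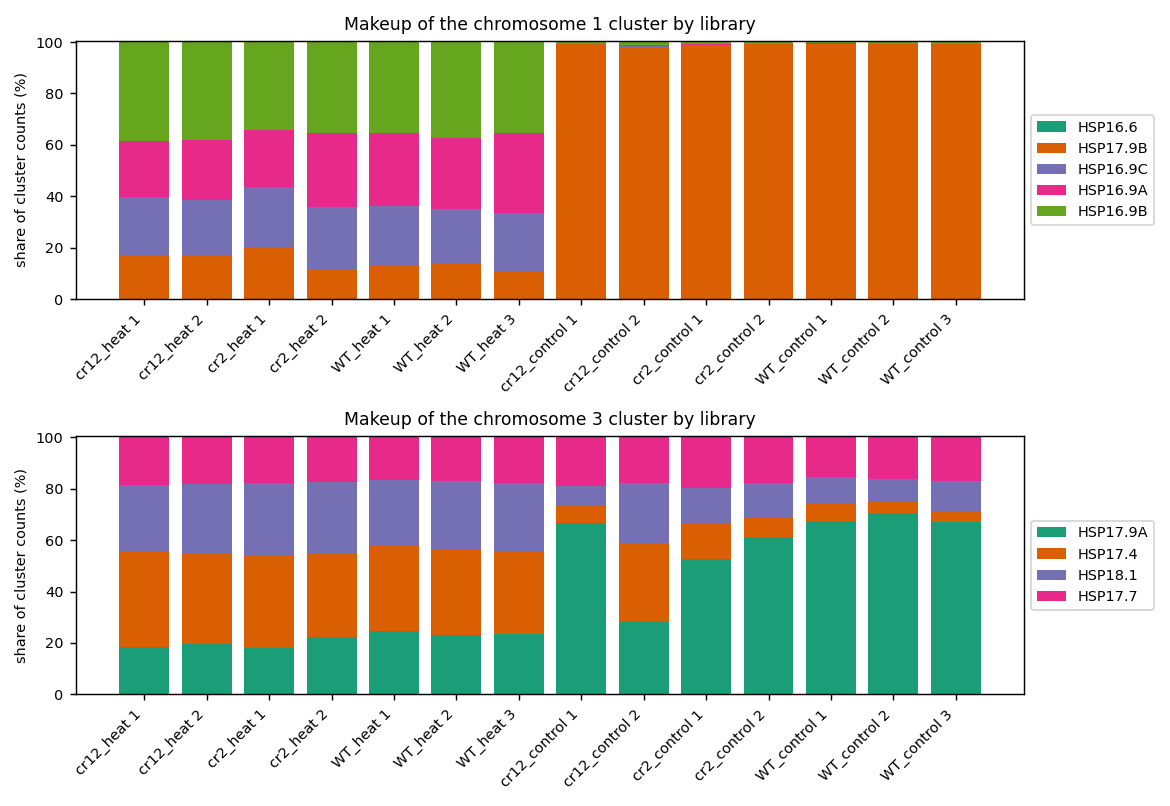
Share of each gene in the summed counts of its cluster (%) in each library, chromosome 1 above and chromosome 3 below, heat-treated libraries on the left. HSP17.9B fills nearly the whole chromosome 1 bar without heat (mean 99.0%) and 14.6% of it after heat.

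The chromosome 3 sum stood at a mean log2 ratio of 3.32 ± 0.54 over the chromosome 1 sum after heat and at -2.98 ± 0.54 without it (SD, n = 7 each, exact permutation p = 0.00058). This difference of 6.29 rests on HSP17.9B. Without that gene the pooled difference was -0.16 (exact permutation p = 0.56), with lower ratios after heat in the WT libraries and higher ones in the cr12 libraries. Neither shift was tested, and without HSP17.9B the untreated chromosome 1 sum held only 126 to 365 counts per library. In WT the log2 ratio without HSP17.9B was 3.14, 3.28 and 2.82 after heat and 4.21, 4.08 and 3.76 in untreated libraries. In cr12 it was 4.31 and 4.33 after heat and 3.09 and 3.93 without it. In cr2 it was 3.66 and 3.28 after heat, overlapping 3.20 and 3.66 without it. Whether these shifts differ between WT and the lines was not tested.

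The chromosome 1 cluster was lower in the heat-treated htg3 lines than in heat-treated WT, while no difference was detected for the chromosome 3 cluster. Its summed level was 1187 and 1479 CPM in cr12_heat, 1281 and 1688 in cr2_heat and 2152, 2510 and 2859 in WT_heat, so every htg3 library lay below every WT library. The log2 change of the sum was -0.83 ± 0.14 (95% interval -1.13 to -0.54, adjusted p = 0.0067). The call was kept under every alternative run, with changes from -0.96 to -0.76 and adjusted p from 2.6e-08 to 0.041, and it was -0.90 without HSP17.9B (adjusted p = 0.036). The chromosome 3 sum was 19439.8 and 24841 CPM in cr12_heat, 12919 and 14599.5 in cr2_heat and 16456, 21084 and 18101 in WT_heat. These groups overlapped, with a change of -0.09 ± 0.30 (95% interval -0.73 to 0.56, adjusted p = 0.92).

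**Figure D3:**
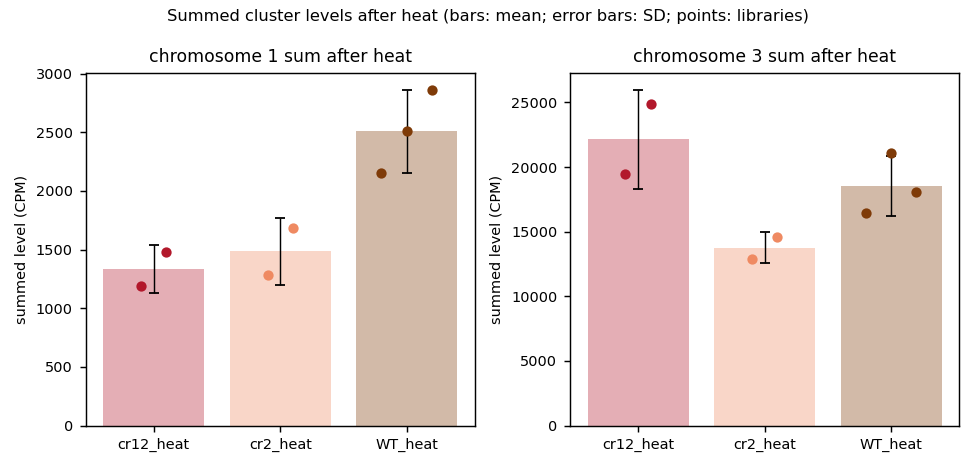
Summed level (CPM) of the chromosome 1 and chromosome 3 clusters after heat in cr12, cr2 and WT; bars are means, error bars SD, points libraries. The highest htg3 library of the chromosome 1 sum (1688 CPM) lies below the lowest WT library (2152 CPM), while in the chromosome 3 sum every WT library lies above both cr2 libraries and 1 lies between the cr12 libraries.

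Gene by gene, 2 of the 9 were called lower in the htg3 lines after heat, against 3.74% of all tested genes, and none was called higher. The median log2 change of the 9 genes was -0.45, against -0.02 over all tested genes. HSP16.9B was lower, with a log2 change of -0.81 ± 0.16 (adjusted p = 0.016) and was called under every alternative run. HSP17.9B was lower, with a change of -0.45 ± 0.12 (adjusted p = 0.048), a call lost in 12 of the 14 fits that left out 1 library, all but those without the second cr2_control or the first cr2_heat library, and when only the groups compared were fitted (adjusted p = 0.11). HSP16.9A (-1.10 ± 0.36, adjusted p = 0.089) and HSP16.9C (-0.81 ± 0.35, adjusted p = 0.19) were not called, although every htg3 library lay below every WT library in both. Both were called by voom (adjusted p = 0.0065 and 0.0084) and with counts divided by 4 (adjusted p = 0.02 and 0.041). They were also called when only the groups compared were fitted (adjusted p = 0.045 and 0.043). HSP16.6 had a change of -1.79 ± 0.67 (adjusted p = 0.14) with overlapping libraries. It was called by voom (adjusted p = 0.039) and with counts divided by 4 (adjusted p = 0.047).

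None of the chromosome 3 genes was called in that comparison. HSP17.9A had a change of -0.35 ± 0.15 (adjusted p = 0.19). The 95% intervals were -1.28 to 1.25 for HSP17.4, -1.06 to 1.03 for HSP18.1 and -0.63 to 0.58 for HSP17.7, wide enough to hold a change as large as that of the chromosome 1 sum in HSP17.4 and HSP18.1. The log2 ratio of the chromosome 3 to the chromosome 1 sum after heat was 3.64 ± 0.49 in the htg3 libraries and 2.89 ± 0.21 in WT (SD, n = 4 and 3, exact permutation p = 0.057, the smallest this design allows). The ratio was 16.4 and 16.8 in cr12_heat, 10.1 and 8.65 in cr2_heat and 7.65, 8.40 and 6.33 in WT_heat. All htg3 libraries thus lay above all WT libraries, with cr12 far above and cr2 close. Without HSP17.9B the ratio was 19.8 and 20.1 in cr12_heat, 12.6 and 9.74 in cr2_heat and 8.80, 9.70 and 7.07 in WT_heat. This comparison of ratios was not among the planned ones.

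**Figure D4:**
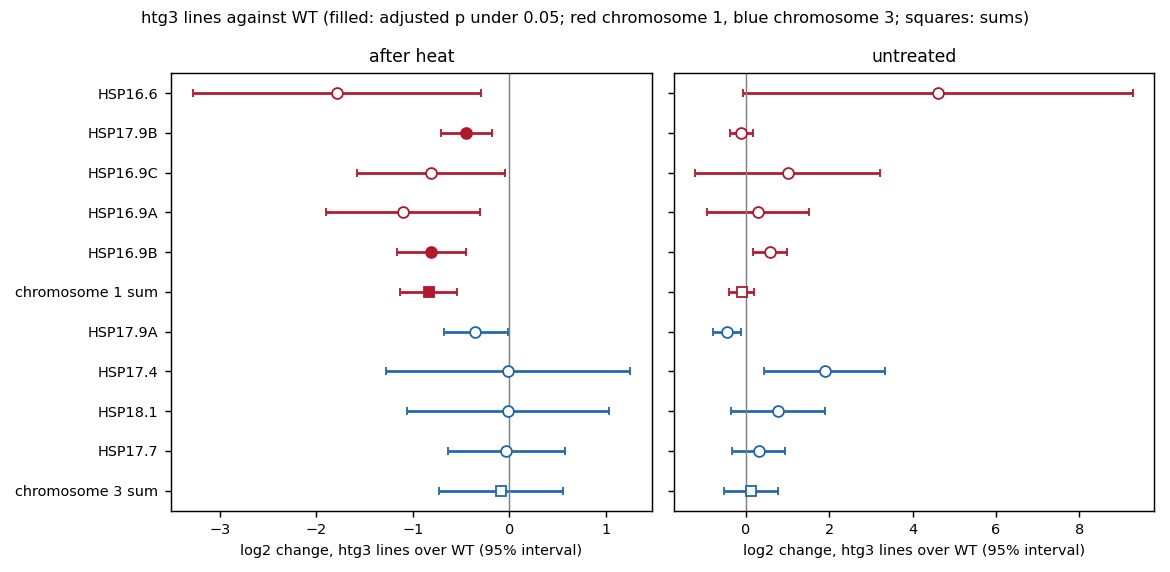
Log2 change of each gene and of both cluster sums, htg3 lines over WT, after heat (left) and without heat (right), with 95% intervals; filled symbols were called. After heat HSP16.9B (-0.81), HSP17.9B (-0.45) and the chromosome 1 sum (-0.83) are called lower.

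The heat response itself was not shown to differ between the htg3 lines and WT. None of the 9 genes was called in the test of that difference, against 0.114% of all tested genes. Of the 9, 3 had an unadjusted p under 0.05, DESeq2 called 2 and voom 0. The shares of all genes under these other rules are not given in any comparison here, so such counts have no reference. HSP16.9B came closest (-1.39 ± 0.25, adjusted p = 0.058). It was called by DESeq2 (-1.42, adjusted p = 1.5e-05) and by edgeR without a filter on low counts (adjusted p = 0.032). The other DESeq2 call was HSP16.6 (-5.88, adjusted p = 0.01), which had no WT_control counts. The chromosome 1 sum, whose untreated counts were mostly those of HSP17.9B, gave -0.73 ± 0.19 (adjusted p = 0.13, or 0.0043 in DESeq2).

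Without heat none of the 9 genes was called between the htg3 lines and WT (3.07% of all tested genes were called). At an unadjusted p under 0.05 there were 3, by DESeq2 2 (HSP16.9B at 0.58 and HSP17.4 at 1.89) and by voom 0. The log2 difference was -0.10 ± 0.14 for the chromosome 1 sum (adjusted p = 0.78) and 0.13 ± 0.30 for the chromosome 3 sum (adjusted p = 0.89). Without HSP17.9B, the chromosome 1 difference was 0.59 (adjusted p = 0.26). The second cr12_control library stood apart in the chromosome 3 genes, with a sum of 54.8 CPM beside 16.3 in the first. The same library had 6.69 CPM of the heat shock factor gene HSFA2a and 8.73 CPM of HSP101, against 0 to 1.25 and 0.571 to 2.65 CPM in the other untreated libraries. For HSFA2d it had 32.0 CPM, against 71.2 to 137 CPM in the others. The part of this library in the result was not tested beyond leaving it out, which turned the chromosome 3 sum to -0.43.

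Between the lines, no gene was called after heat (5.62% of all tested genes were) or without it (3.8%). After heat, 1 gene had an unadjusted p under 0.05 and DESeq2 called 1, HSP17.9A, while voom called 0. Without heat the counts were 2, 2 and 0. After heat, the log2 difference of cr12 over cr2 was 0.60 ± 0.20 for HSP17.9A (adjusted p = 0.12) and 0.75 ± 0.37 for HSP17.7 (adjusted p = 0.29). For HSP17.4 it was 0.77 ± 0.76 (adjusted p = 0.67) and for HSP18.1 0.60 ± 0.63 (adjusted p = 0.7). These neighbours may share reads, so their values are not independent. The log2 difference of cr12 over cr2 was 0.69 ± 0.39 for the chromosome 3 sum (adjusted p = 0.38) and, for the chromosome 1 sum, -0.16 ± 0.18 (adjusted p = 0.73). HSFA2d stood at 518 CPM in cr12_heat and 256 in cr2_heat beside these values. Its log2 difference between cr12_heat and cr2_heat was 1.02 ± 0.46 and was not called (adjusted p = 0.26). Of 14 heat shock factor genes 6 were called higher in cr12_heat than in cr2_heat, among them HSFA4d (1.52 ± 0.25, adjusted p = 0.0067) and HSFB2a (1.10 ± 0.22, adjusted p = 0.014). Their part in the levels of the 9 genes was not tested.

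Loci around the clusters were called in both directions with heat. Of 24 other loci close by in locus ID, 19 were tested. In the htg3 lines 5 were called higher and 7 lower, and in WT 6 higher and 5 lower. Over all tested genes 27.6% were called higher in the lines and 24.8% in WT, so the counts called higher were near the general share. The general share called lower is not given here. The largest rise among the 19 loci was 3.35 ± 0.31 in WT, in LOC_Os01g04330, the locus next to HSP16.6 by ID. That locus changed by 2.50 ± 0.26 in the htg3 lines. LOC_Os03g16080 rose by 1.76 ± 0.11 in the lines and 1.86 ± 0.13 in WT. LOC_Os01g04324 fell by 1.67 in the lines and by 2.15 in WT. LOC_Os03g16050, next to HSP17.7 by ID, fell by 1.14 in the lines and by 1.06 in WT. Between HSP17.9A and HSP17.4 lie 5 loci, of which 2 were tested. LOC_Os03g16000 fell with heat in the htg3 lines (log2 change -0.50 ± 0.11, adjusted p = 0.0016) and had a change of -0.20 ± 0.12 in WT (adjusted p = 0.19). LOC_Os03g16010 had changes of -0.13 ± 0.10 in the htg3 lines and 0.12 ± 0.11 in WT, neither called (adjusted p = 0.3 and 0.43).

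**Figure D5:**
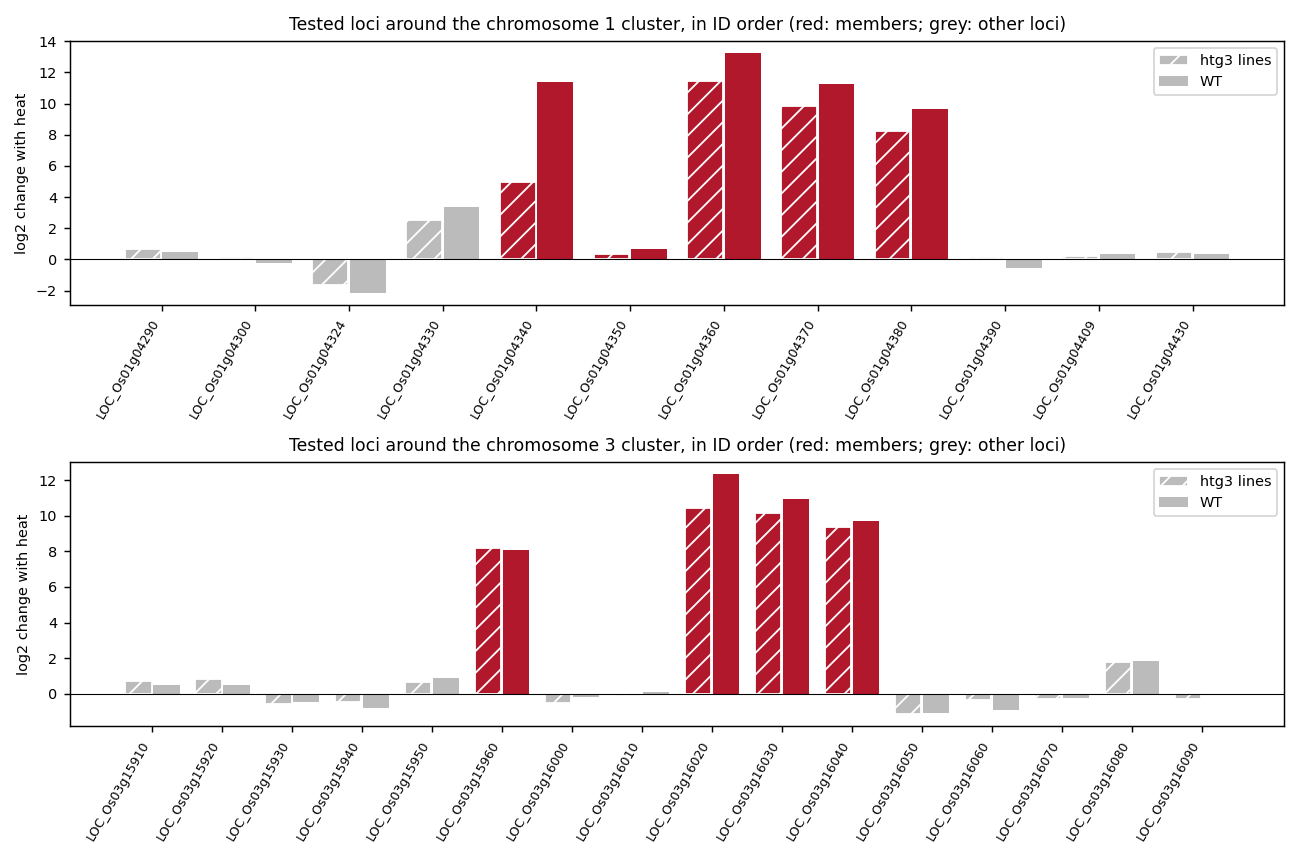
Log2 change with heat of the tested loci around each cluster in locus ID order, htg3 lines (hatched) left of WT (plain), the 9 genes in red and other loci in grey. The red bars other than HSP17.9B stand at 4.98 or above, and the highest grey bar at 3.35; the size of the HSP16.6 bar in WT is set against libraries without counts and is no estimate.

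All 8 other small heat shock protein genes rose with heat in the htg3 lines and in WT, with median changes of 9.72 and 10.36, the second also 10.36 with the 2 genes that had no WT_control counts at their bounds. The shares called higher with heat over all tested genes were 27.6% in the lines and 24.8% in WT. None of the 8 was called between the lines and WT after heat (median -0.33). Of 14 heat shock factor genes, 12 rose and 1 fell with heat in both, among them HSFB2b (6.62 ± 0.37 in the lines, 6.87 ± 0.44 in WT). Of 12 partner chaperone genes, 10 rose in both, among them HSP101 (11.02 ± 0.71 and 11.54 ± 0.84) and the HSP90 gene LOC_Os04g01740 (11.43 ± 0.98 and 13.83 ± 1.25). LOC_Os04g01740 stood at 0.161 to 5.18 CPM in the untreated libraries, so its fitted sizes are imprecise. After heat 1 of the 12 was called lower in the htg3 lines, against 3.74% of all tested genes, so 1 call does not set this list apart. That gene was the HSP70 gene LOC_Os03g16920 (-0.93 ± 0.14, adjusted p = 0.0053). It had 372 and 414 CPM in cr12_heat, 399 and 555 in cr2_heat and 709, 776 and 995 in WT_heat, without overlap.

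LOC_Os03g16920 was also among the genes whose levels followed the chromosome 1 cluster most closely. Over the 14 libraries, which share the heat contrast, Pearson's r on log2(CPM + 1) with the mean of the 4 heat-induced chromosome 1 genes was 0.9988 for the small heat shock protein gene LOC_Os04g36750, 0.9983 for LOC_Os03g16920 and 0.9974 for LOC_Os11g05170. For the chromosome 3 genes it was 0.9997 for the small heat shock protein gene LOC_Os01g08860, 0.9990 for the HSP90 gene LOC_Os04g01740 and 0.9988 for LOC_Os02g15930. HSP17.9B was followed less closely, by LOC_Os06g12020 at 0.9577, LOC_Os01g46080 at 0.9553 and LOC_Os02g35130 at 0.9529.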

How the data were processed

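The submitters' processing notes name StringTie 1.3.3b, HISAT2 2.1.0, fastp 0.20.1 and DESeq2 but no roles, and a genome build was not given in the sources. The authors deposited estimated counts per gene for 55986 loci, whole numbers, so rounding altered nothing. Low values gather at 4 (9196 values, against 3918 at 3 and 5346 at 5), so 1 fragment was taken as about 4 counts and the floor for a group without counts as 12 counts, 3 fragments; the floor covers counting error only. edgeR 4.0.16 in R 4.3.3 (TMM scaling, filterByExpr, quasi-likelihood F test, Benjamini-Hochberg) fitted 6 group means to 14 libraries; a second fit replaced the 9 genes by 2 cluster sums. Each SE was approximated as the size of the log2 change over the root of F. limma 3.58.1 (voom) and DESeq2 1.42.0 were alternatives, with other scaling, no filter, counts divided by 4, only the groups compared and each library left out. Scripts were tested on simulated data. Gene names were paired with locus IDs from published rice naming; the RefSeq table (ASM3414082v1) holds the same genes in the same order and gave gene spans. All 9 genes are named; of each pathway list the called genes with the largest change, neighbouring loci changed at least 2-fold, and the 3 genes of most similar pattern. List genes with 0 counts in any untreated library were not named as their list's examples, a departure from this rule made after their values were seen. The members and lists were chosen with earlier results of these data known. Promoter and protein sequences were not analysed here.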

Additional observations from a re-analysis of the deposited data

Results flagged for a closer look

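HSP17.4 (LOC_Os03g16020) after heat drew attention because the htg3 lines lay on opposite sides of WT. Both cr12_heat libraries (7171 and 8711 CPM) were above every WT_heat library and both cr2_heat libraries (4585 and 4726 CPM) were below every one (5474, 7060 and 5872 CPM). The log2 difference, cr12 minus cr2, was 0.77 ± 0.76 (edgeR adjusted p = 0.67), so the lines were not shown to differ.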

How the results depend on the processing

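All 9 genes stayed called higher with heat in WT under every alternative, and 8 or 9 in the htg3 lines. The chromosome 1 sum stayed called lower in the heat-treated htg3 lines. Genes with few untreated counts and groups of 2 libraries limit the rest, and below the cause was not tested unless named. No paired analysis was possible because the labels give no replicate numbers. The shares of all tested genes called under each alternative are not given here, so the counts below cannot be set against them. After heat, voom called 5 genes between the htg3 lines and WT and counts divided by 4 called 5, against 2, and 1 to 3 were called with each library left out. DESeq2 called 2 genes between the lines and WT without heat, 2 for the difference of heat responses, 2 for cr12 against cr2 without heat and 1 after heat, against 0 each, and gave -0.76 for the chromosome 1 difference of responses. Without a filter on low counts 1 gene was called for that difference. The same 4 counts ranged over 0 to 2, 0 to 2, 0 to 4 and 0 to 1 with each library left out. Without cr12_control replicate 1, which leaves the replicate that stood apart alone in its group, they were 2, 2, 4 and 1.

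Leaving out both cr12_control 2 and cr2_heat 2, an alternative chosen after seeing the data, left 1 gene called between the htg3 lines and WT after heat and turned several values that were not called. Without heat the lines differed from WT by -0.02 for HSP16.9A, -0.45 for HSP18.1, -0.22 for HSP17.7, -0.46 for HSP16.9C and -0.43 for the chromosome 3 sum. The difference of responses was 0.40 for HSP18.1, 0.17 for HSP17.7 and 0.31 for the chromosome 3 sum. For cr12 against cr2 without heat it gave -0.05 for HSP16.9A, -1.05 for HSP17.4, -1.0 for HSP18.1, -0.00 for HSP17.9A, -4.07 for HSP16.6, -0.24 for HSP17.7, -0.04 for HSP16.9C and -0.24 for the chromosome 3 sum. For cr12 against cr2 after heat it gave 0.11 for HSP16.9A, 0.25 for HSP16.9B, -0.18 for HSP17.9B and 0.08 for the chromosome 1 sum. HSP16.9B stood at 0.00 there with DESeq2's size factors and in DESeq2, and HSP17.4 at 0.00 between the lines and WT after heat with counts divided by 4.

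With each library left out in turn, log2 changes between the htg3 lines and WT without heat ran from -0.80 to 0.89 in HSP16.9A, -0.44 to 1.21 in HSP18.1, -0.21 to 0.62 in HSP17.7, -1.51 to 1.49 in HSP16.9C and -0.43 to 0.45 in the chromosome 3 sum. After heat they ran from -0.11 to 0.09 in HSP17.4, -0.14 to 0.09 in HSP18.1, -0.15 to 0.06 in HSP17.7 and -0.20 to 0.01 in the chromosome 3 sum. Differences of heat responses ran from -0.05 to 0.25 in HSP17.9A, -1.22 to 0.44 in HSP18.1, -0.63 to 0.20 in HSP17.7, -2.30 to 0.72 in HSP16.9C and -0.52 to 0.35 in the chromosome 3 sum. For cr12 against cr2 without heat they ran from -0.27 to 2.76 in HSP16.9A, -1.07 to 2.93 in HSP17.4, -1.02 to 2.29 in HSP18.1, -0.02 to 0.48 in HSP17.9A, -4.08 to 5.11 in HSP16.6, -0.26 to 1.40 in HSP17.7, -0.05 to 7.88 in HSP16.9C and -0.24 to 1.49 in the chromosome 3 sum. After heat they ran from -0.21 to 0.26 in HSP16.9B, -0.18 to 0.28 in HSP17.9B, -0.65 to 0.11 in HSP16.9A, -0.32 to 0.08 in the chromosome 1 sum and 0.54 to 0.87 in the chromosome 3 sum. That last sum was called without cr12_control replicate 1 (0.70, adjusted p = 0.044 in edgeR) and without cr12_control replicate 2 (0.71, adjusted p = 0.042).

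In WT libraries alone, where 3 against 3 cannot pass, differences of cluster shares with heat were 0.136 percentage points for HSP16.6, -86.9 for HSP17.9B, 22.6 for HSP16.9C, 28.8 for HSP16.9A, 35.4 for HSP16.9B, -44.6 for HSP17.9A, 28.1 for HSP17.4 and 15.5 for HSP18.1, and the log2 ratio of the cluster sums differed by 5.93. In htg3 libraries alone they were 0.0612 for HSP16.6 and -0.543 for HSP17.7. Without HSP17.9B, which removes most untreated counts of the cluster, they were -0.679 for HSP16.6 and -34.8 for HSP16.9B, the ratio differed by -0.16, and the untreated chromosome 1 sum by 0.59 between the lines and WT. With each library left out the share difference of HSP17.7 ran from -0.254 to 0.448. Between the lines and WT after heat, that of HSP16.9C ran from -0.0781 to 0.816 and that of HSP16.9B from -8.35e-06 to 1.49.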
